A study of Rattus norvegicus with 9 samples.

Results

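The Kruppel-like factors (KLFs) described here are 9 transcription factors, Klf2, Klf3, Klf4, Klf5, Klf6, Klf9, Klf10, Klf13 and Klf15, listed because they are known to answer to blood flow, serum or glucocorticoids. They were found by gene symbol among 37203 symbols in a table of read counts from the superior mesenteric artery (SMA), the vessel that feeds most of the small bowel. All 9 were present, and all 9 were among the 15482 genes with enough counts to be tested. The arteries came from Sprague-Dawley rats, 8 weeks old, with 3 rats in each of 3 groups named normal, ischemia 1 h and ischemia 4 h. Ischemia was produced by bleeding anaesthetised rats through a femoral catheter, so it was a hemorrhage of the whole animal. Whether the normal rats were also anaesthetised and catheterised, and at what time of day any rat was killed, is not given in the sources used here. No genotype, transgene or drug treatment is named for any group beyond the anaesthetic used for the model.

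KLFs share a DNA-binding end made of zinc fingers that recognise GC-rich and CACCC sequences, and differ in the rest of the protein, which recruits activators or repressors. In arteries Klf2 and Klf4 are known as the factors that laminar blood flow induces in endothelium, and Klf4 and Klf5 are known to push smooth muscle away from its contractile state. Klf9, Klf13 and Klf15 are known as glucocorticoid-responsive members, Klf6 and Klf10 as early response genes of injury and of TGF-beta, and Klf3 as a repressor that works through the corepressor CtBP.

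Each library held 13114273 to 15504240 counts. Values below are CPM, the usual per-library rate of read counts, on library sizes scaled by the TMM method, on which 1 CPM was 12.1 to 17.9 counts, and the floor of 3 counts for a gene with none lay at 0.168 to 0.249 CPM, counting error only. The defining genes of smooth muscle were all tested (8 of 8). In replicate order their summed levels were 10787, 47190 and 48028 CPM in normal and 25372, 45950 and 12468 CPM at 1 h. At 4 h they were 68828, 48800 and 23758 CPM. The libraries of one group were not alike in these sums, normal replicate 1 being the lowest of its group, nor in nerve markers. A nerve score, the mean log2 CPM of 20 genes of sympathetic neurons and Schwann cells, was 5.72, 0.29 and 4.59 in normal, 8.23, 5.86 and 8.37 at 1 h, and 1.27, 1.93 and 8.29 at 4 h.

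Bases before the RefSeq transcription start (assembly GRCr8) are printed for Klf9 and Klf4, which stood higher at 4 h, and for Klf6, a member whose groups overlapped. RefSeq start windows were found for 6 of the 9 members (Klf3, Klf4, Klf5, Klf6, Klf9 and Klf15), and in 3 of these (Klf5, Klf6 and Klf9) the 250 bases before the start lay clear of the gene itself. Capitals mark matches, on either strand, to 6 short motifs: the cyclic AMP response half-site TGACG, the E-box CACGTG, the glucocorticoid half-site AGAACA, the CCAAT box, the KLF site CACCC and the MEF2 core TAAAAATA. The sequence of Klf9 is chr1:230126396-230126645 on the plus strand and that of Klf6 is chr17:69458479-69458728 on the minus strand. The Klf4 start lies inside the span of its gene, so only 30 bases are shown, chr5:75078724-75078753 on the minus strand.
Klf9: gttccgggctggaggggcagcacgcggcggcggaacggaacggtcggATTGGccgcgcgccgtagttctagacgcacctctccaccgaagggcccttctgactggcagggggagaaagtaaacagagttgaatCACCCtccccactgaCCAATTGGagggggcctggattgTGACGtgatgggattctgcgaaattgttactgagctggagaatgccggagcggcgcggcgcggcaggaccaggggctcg
Klf6: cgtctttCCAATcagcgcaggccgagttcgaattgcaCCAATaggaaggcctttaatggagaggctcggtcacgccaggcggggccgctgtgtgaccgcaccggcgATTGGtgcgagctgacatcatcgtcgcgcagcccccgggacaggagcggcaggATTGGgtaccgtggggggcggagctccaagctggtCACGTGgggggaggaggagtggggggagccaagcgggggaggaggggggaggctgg
Klf4: tgctgattgtcTATTTTTAtaagagtttac

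The Klf9 stretch held 1 TGACG, 79 to 75 bases before the start, 3 CCAAT matches of which 2 overlap, and 1 CACCC. The Klf6 stretch held 4 CCAAT matches and 1 CACGTG, 56 to 51 bases before the start. In Klf4 the capitals are the MEF2 core, read on the opposite strand, 150 to 143 bases before the start, and MEF2 proteins are the factors through which flow is known to act on Klf2 and Klf4. Over the 250 bases before 33469 RefSeq starts, TGACG was found in 18.2% of windows, CACGTG in 5.59%, AGAACA in 17.5%, CCAAT in 34%, CACCC in 49.2% and TAAAAATA in 2.44%. These matches describe letters only. Binding was not measured.

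The first question was whether any of the 9 factors was altered over the 3 groups. A gene was called when its adjusted p was under 0.05 and its fold change over 1.5. By edgeR 0 of 9 members were called, against 0.0388% of all tested genes. At an unadjusted p under 0.05 there were 2 members, Klf4 and Klf3, against 11.4% of all genes. DESeq2 called 1 member, Klf4, against 4.32% of all genes.

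In the early stage, 1 h against normal, Klf4 was the member that stood apart, with 3 libraries above every normal library, and the other 8 overlapped their controls. By edgeR 0 of 9 members were called, against 0.0581% of all genes, and 1 (Klf4) had an unadjusted p under 0.05, against 16.7%. DESeq2 called 1 of 9 (Klf4), against 4.53%. Groups did not overlap for 1 of 9 members, against 26.3% of all genes, so the members did not stand apart from other genes in this count. Their median log2 fold change was 0.0031, against -0.0076 over all genes.

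In the late stage, 4 h against normal, Klf4 and Klf9 were higher in all 3 ischemic libraries than in any normal library, and Klf3 was lower in all 3. By edgeR 0 of 9 were called, against 0.0904% of all genes, and these 3 had an unadjusted p under 0.05, against 12.4%. DESeq2 called 1 of 9 (Klf4), against 3.91%. Groups did not overlap for 3 of 9, against 18.7% of all genes. The median log2 fold change of the members was 0.36, against 0.027 over all genes. Both stages were set against the same normal libraries.

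Between 4 h and 1 h, levels were compared on TMM-scaled CPM. Klf4 and Klf10 were higher and Klf3 was lower in all 3 libraries at 4 h than in any at 1 h. Relative to total counts alone, Klf4 and Klf10 in replicate 1 at 4 h lay below replicate 2 at 1 h. Klf4 had 1990 of 14870722 counts there against 2118 of 15504240, and Klf10 had 808 against 934. Klf3 did not overlap on either scale. By edgeR and by DESeq2 0 of 9 were called, against 0% of all genes with each tool, and 1 (Klf3) had an unadjusted p under 0.05 by edgeR, against 2.58%. On TMM-scaled CPM, groups did not overlap for 3 of 9, against 6.24% of all genes. The smallest edgeR adjusted p of the members was 0.856, which was also the smallest over all tested genes. Klf2, Klf3, Klf4, Klf9, Klf10 and Klf15 shared it, so it does not tell them apart. Their unadjusted edgeR p was 0.209, 0.0274, 0.0525, 0.252, 0.0963 and 0.0505 in that order.

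**Figure D1:**
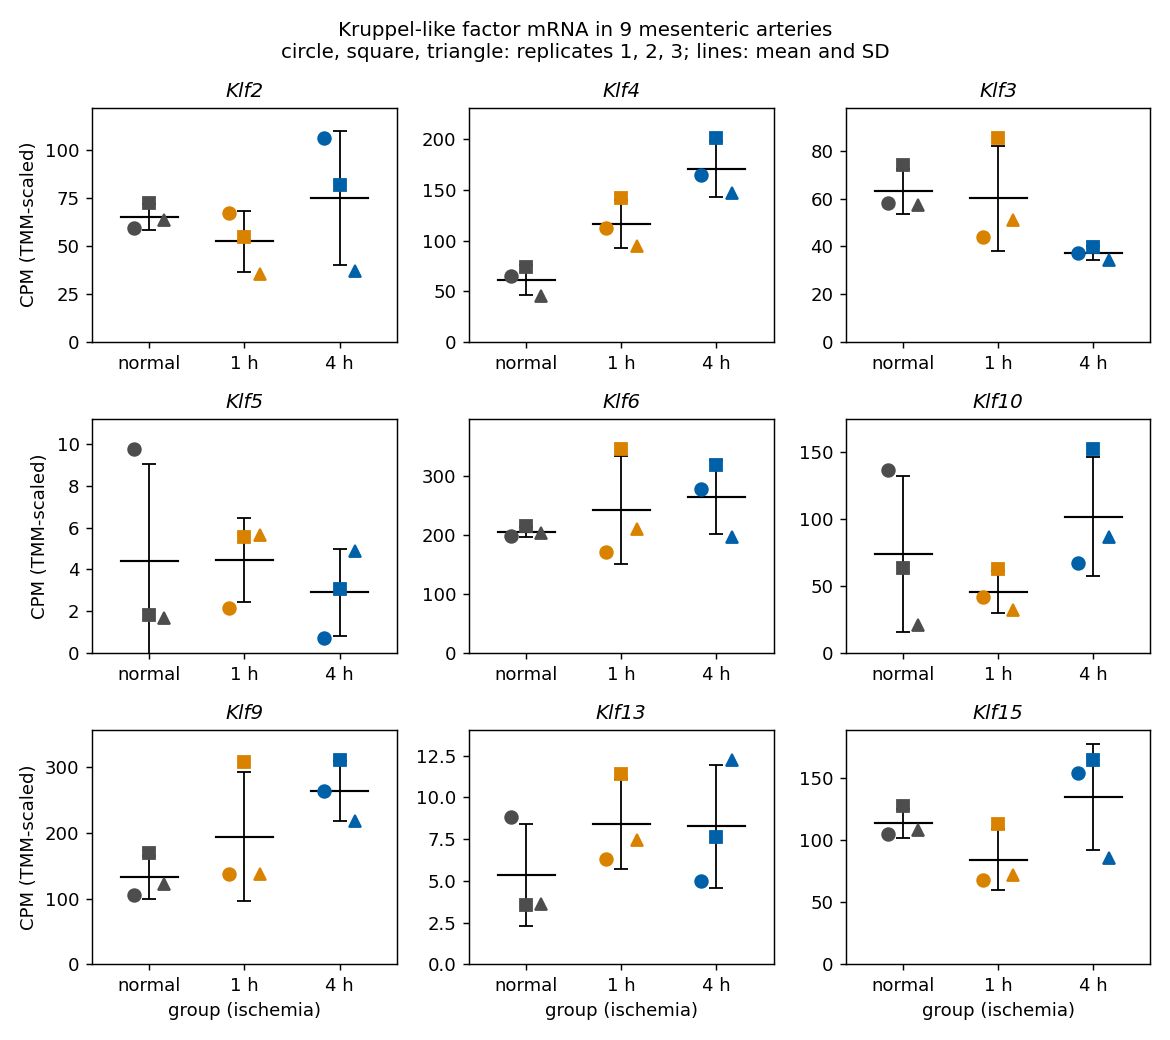
Level of each Kruppel-like factor in CPM (y axis, from 0) in normal arteries and after 1 h and 4 h of ischemia (x axis), 1 point per rat, with the mean and SD of 3. Klf4 at 4 h lies between 147 and 201 CPM, above the normal range of 45.1 to 73.9 CPM, while the points of Klf5, Klf6 and Klf13 overlap in all groups; the lower SD bar of Klf5 in normal runs below 0 and is not drawn there.

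Among the flow-induced pair, Klf4 gave the clearest values of the family. It was at 65.2, 73.9 and 45.1 CPM in normal, at 113, 142 and 94.7 CPM at 1 h, and at 165, 201 and 147 CPM at 4 h. On TMM-scaled CPM no library of one group overlapped a library of another, and the levels were ordered normal, 1 h, 4 h. Relative to total counts alone, replicate 1 at 4 h lay below replicate 2 at 1 h. The group means were 61.4 ± 14.8, 116 ± 23.7 and 171 ± 27.7 CPM (SD, n = 3 each), read from 610 to 2426 counts per library. Klf4 was 1.89-fold higher at 1 h (log2 fold change 0.92, SE 0.25, edgeR adjusted p = 0.216) and 2.78-fold higher at 4 h (1.48, SE 0.25, edgeR adjusted p = 0.0712). The 95% interval of the log2 fold change at 4 h was 0.90 to 2.05. DESeq2 gave adjusted p = 0.0159 at 1 h and 4.83e-06 at 4 h. In the 9 fits that each left out 1 library the log2 fold change at 4 h ran from 1.30 to 1.65 and the edgeR adjusted p from 0.0978 to 0.232. When the nerve score entered the fit it was 1.499 (SE 0.22, edgeR adjusted p = 0.0373), in a fit that called 0.814% of all genes. Between 4 h and 1 h Klf4 differed by 0.56 (SE 0.25, edgeR adjusted p = 0.856), and by 0.36 when only library size was scaled for.

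Klf2, the other flow-induced factor, did not share this order. It was at 59.2, 72.3 and 63.4 CPM in normal, at 67.1, 54.5 and 35.4 CPM at 1 h, and at 106, 81.6 and 36.9 CPM at 4 h. The 3 normal libraries were close together and the ischemic ones spread to both sides of them. The log2 fold change was -0.31 at 1 h (95% interval -1.18 to 0.55) and 0.20 at 4 h (-0.66 to 1.07), so neither interval was narrow. Its value at 4 h was -0.038 when only library size was scaled for and -0.16 without replicate 1 at 4 h. Klf2 and Klf4 are both endothelial in part, and 10 of 10 endothelial markers were in the table, with summed levels of 929 to 1688 CPM in normal, 724 to 1199 CPM at 1 h and 763 to 1032 CPM at 4 h. In whole tissue, fewer cells of a type and less RNA per cell cannot be told apart.

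**Figure D2:**
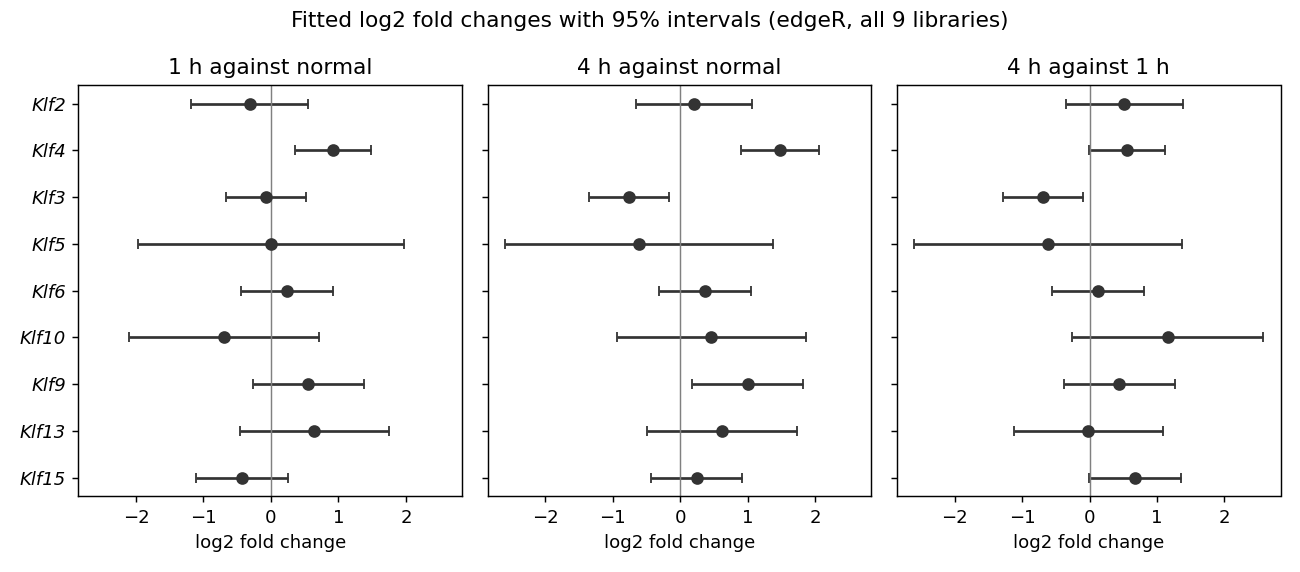
Fitted log2 fold change (x axis) of the 9 factors (y axis) in the 3 comparisons, with points for the edgeR estimate and bars for its 95% interval. The bars of Klf4 and Klf9 lie above 0 and that of Klf3 below 0 at 4 h against normal, while the bars of Klf5 and Klf10 are the widest.

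Klf3, the CtBP-dependent repressor, was the member that stood lower. It was at 58.1, 74.0 and 57.4 CPM in normal, at 43.9, 85.4 and 51.1 CPM at 1 h, and at 37.5, 40.0 and 34.4 CPM at 4 h. The 3 libraries at 4 h were close together and below every other library of the study. Against normal the log2 fold change at 4 h was -0.76 (SE 0.26, edgeR adjusted p = 0.288), and against 1 h it was -0.69 (SE 0.26, edgeR adjusted p = 0.856). The first of these ran from -0.82 to -0.62 in the fits that left out 1 library, with unadjusted p from 0.00245 to 0.0768. The second ran from -0.87 to -0.35, the latter without replicate 2 at 1 h.

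Of the glucocorticoid-responsive members, Klf9 was the one with separate groups. It was at 106, 169 and 121 CPM in normal, at 137, 308 and 138 CPM at 1 h, and at 263, 310.3 and 218 CPM at 4 h. All 3 libraries at 4 h were above normal, whereas at 1 h only replicate 2 was far above it. The log2 fold change at 4 h was 1.00 (SE 0.36, edgeR adjusted p = 0.316), with a range of 0.86 to 1.22 when 1 library was left out. In those fits its unadjusted edgeR p ran from 0.00373 to 0.0762, so it was not under 0.05 in all of them. At 1 h it was 0.55 (SE 0.36, edgeR adjusted p = 0.411), and 0.054 without replicate 2 at 1 h. When the nerve score entered the fit the value at 4 h was 1.06 (SE 0.28, edgeR adjusted p = 0.139).

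Klf15, known for switching on amino acid breakdown under glucocorticoids and fasting, was at 105, 127 and 108 CPM in normal. It was at 68.4, 113 and 71.9 CPM at 1 h and at 154, 164 and 85.8 CPM at 4 h. It was lowest in replicates 1 and 3 at 1 h and in replicate 3 at 4 h, which were the 3 libraries with the highest nerve score. The log2 fold change was -0.43 at 1 h (SE 0.29) and 0.25 at 4 h (SE 0.29), and the difference between 4 h and 1 h was 0.67 (SE 0.30, edgeR adjusted p = 0.856). When the nerve score entered the fit these were 0.011 (SE 0.22), 0.22 (SE 0.19) and 0.21 (SE 0.22).

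Klf13, which is known to work in lymphocytes and heart, was a low gene here. It was at 8.85, 3.58 and 3.62 CPM in normal, at 6.29, 11.4 and 7.43 CPM at 1 h, and at 4.96, 7.63 and 12.2 CPM at 4 h. The groups overlapped, with 49 to 185 counts per library. Log2 fold changes were 0.64 at 1 h (SE 0.48) and 0.63 at 4 h (SE 0.49), and 1.22 and 1.198 without normal replicate 1. They were 0.36 without replicate 2 at 1 h and 0.23 without replicate 3 at 4 h.

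Among the serum and injury members, Klf6, the most even of the 9 in normal arteries relative to its mean, was at 199, 215 and 203 CPM. At 1 h it was at 172, 345 and 210.0 CPM and at 4 h at 278, 319 and 196 CPM. Its groups overlapped in every comparison, and log2 fold changes were 0.24 at 1 h (95% interval -0.44 to 0.92) and 0.36 at 4 h (-0.31 to 1.04). The value at 1 h rested on replicate 2, and without it was -0.11.

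Klf10, a gene induced by TGF-beta, varied more among the normal libraries than within either ischemic group. It was at 136, 63.6 and 21.3 CPM in normal, at 42.1, 62.4 and 32.3 CPM at 1 h, and at 66.8, 152 and 86.6 CPM at 4 h. On TMM-scaled CPM all 3 libraries at 4 h were above all 3 at 1 h, but not relative to total counts alone. The normal libraries, from 21.3 to 136 CPM, overlapped both groups. The difference between 4 h and 1 h was 1.16 on the log2 scale (SE 0.62, edgeR adjusted p = 0.856), and 0.75 without replicate 2 at 4 h. Against normal the log2 fold changes were -0.69 at 1 h (SE 0.61) and 0.46 at 4 h (SE 0.61), and without normal replicate 1 they were 0.10 and 1.26. Without normal replicate 3 they were -1.13 and 0.026.

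Klf5, which is known to drive growth of smooth muscle after vessel injury, was the lowest in counts, with 9 to 174 per library. It was at 9.74, 1.82 and 1.70 CPM in normal, at 2.14, 5.55 and 5.65 CPM at 1 h, and at 0.744, 3.07 and 4.89 CPM at 4 h. Log2 fold changes were 0.0031 at 1 h (SE 0.86) and -0.61 at 4 h (SE 0.86), and without normal replicate 1, the highest library, they were 1.33 and 0.72. The table also lists the pseudogene Klf5-ps1, with 1 to 27 counts per library, and how reads were divided between it and Klf5 is not given in the sources used here.

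**Figure D3:**
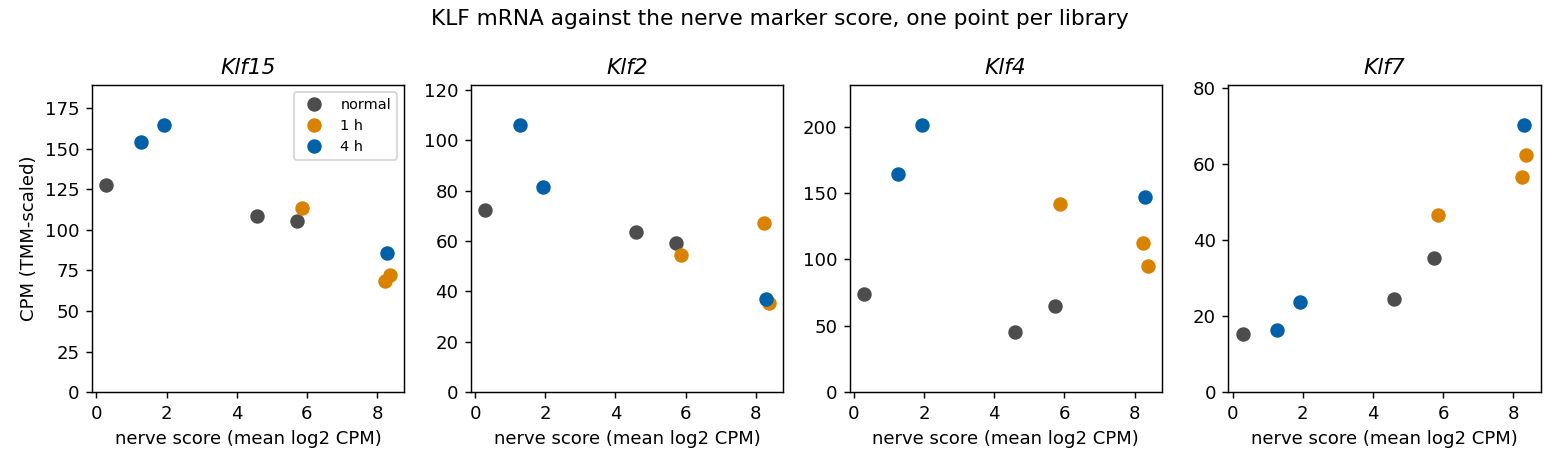
CPM (y axis, from 0) of Klf15, Klf2, Klf4 and Klf7 against the nerve score (x axis, mean log2 CPM of 20 nerve genes), with 1 point per library coloured by group. The 3 libraries scoring above 8.2 hold the lowest Klf15 (68.4 to 85.8 CPM) and the highest Klf7 (56.6 to 70.2 CPM), while Klf4 in those libraries (94.7 to 147 CPM) is above every normal library.

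The nerve score followed group only in part, with all 3 libraries at 1 h above all 3 normal ones and the libraries at 4 h on both sides. All 20 nerve genes had counts in every group, and their summed level was 108 to 3444 CPM in normal, 2392 to 11145 CPM at 1 h and 270 to 11007 CPM at 4 h. In the fit with the score, Klf2 at 1 h had a log2 fold change of 0.24 (SE 0.33) in place of -0.31, and its difference between 4 h and 1 h was -0.12 (SE 0.34) in place of 0.52. That of Klf9 at 1 h was 0.98 (SE 0.33, edgeR adjusted p = 0.410), and its difference between 4 h and 1 h was 0.079 (SE 0.31) in place of 0.44. At 1 h Klf6 was at 0.55 (SE 0.28) in place of 0.24 and Klf13 at 0.25 (SE 0.48) in place of 0.64. Klf3 at 1 h was at 0.18 (SE 0.27) in place of -0.07, and Klf5 at -0.67 (SE 0.81) in place of 0.0031. Klf4 at 1 h was at 1.17 (SE 0.26) in place of 0.92, and its difference between 4 h and 1 h was 0.33 (SE 0.25) in place of 0.56. The part of nerve tissue in these values was not tested. Summed adipocyte markers (9 of 9 in the table, with Ucp1 at 0 in every normal library) were at 525 to 2627 CPM in normal, 970 to 2492 CPM at 1 h and 418 to 1201 CPM at 4 h, and summed macrophage markers (7 of 8) at 40.9 to 116, 60.4 to 118 and 27.8 to 67.5 CPM. Normal replicate 1, the lowest normal library in smooth muscle markers, held 2627 CPM of adipocyte markers. Normal replicates 2 and 3 held 667 and 525 CPM. The part of smooth muscle, adipocytes and macrophages in the values of the members was not tested either.

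Of the further KLF family, 8 of 9 listed genes were in the table and 5 passed the filter, none of which was called in any comparison. Klf7, known best from neurons, was at 35.2, 15.2 and 24.6 CPM in normal, at 56.6, 46.5 and 62.4 CPM at 1 h and at 16.4, 23.8 and 70.2 CPM at 4 h. It was above normal in all 3 libraries at 1 h, and it ordered the 9 libraries as the nerve score did except for the top 2, which were exchanged. Its log2 fold change at 1 h was 1.14 (SE 0.54, edgeR adjusted p = 0.311). Klf11, a close relative of Klf10, was at 88.1, 74.1 and 31.1 CPM in normal and at 30.6, 36.6 and 31.6 CPM at 1 h, with a log2 fold change of -0.97 (SE 0.38, edgeR adjusted p = 0.284). At 4 h it was at 31.0, 50.9 and 30.8 CPM. Klf12, Klf16 and Klf8 had log2 fold changes of -0.37, -0.29 and 0.30 at 1 h and of -0.41, -0.33 and 0.55 at 4 h, each within 2 SE of 0. Klf1 and Klf14, with 0 to 11 counts per library, and Klf17, with 0 in all 9, were not tested.

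Genes around the KLFs were then examined by list. In each of these lists edgeR called 0 genes in every comparison, so the counts below are at an unadjusted p under 0.05, which 16.7% of all genes reached at 1 h and 12.4% at 4 h. Of the related SP factors, 4 of 9 were tested and 0 passed in any comparison. The smallest p over the 3 groups belonged to Sp1 (log2 fold change -0.43, SE 0.30, at 4 h) and Sp4 (-0.33, SE 0.33). Of the MEK5, ERK5 and MEF2 route through which flow is known to raise Klf2 and Klf4, 9 of 10 genes were tested, with 1 lower at 1 h, a smaller share than the 16.7% of all genes, and 2 higher and 1 lower at 4 h, where all genes gave 12.4%. Mef2d, one of the MEF2 factors, had a log2 fold change of 0.98 (SE 0.36, edgeR adjusted p = 0.322) at 4 h, and Mef2a 0.50 (SE 0.19, edgeR adjusted p = 0.335). Map3k3, a kinase at the head of the route, had -0.50 (SE 0.17) at 1 h and -0.51 (SE 0.17, edgeR adjusted p = 0.291) at 4 h.

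Of 12 endothelial genes known to be raised or lowered by KLF2 and KLF4, 11 were tested, with 3 higher at 1 h and 2 higher and 1 lower at 4 h. Sele, the gene of E-selectin, was at 0.672, 0.438 and 0.591 CPM in normal and at 9.57, 10.3 and 10.4 CPM at 1 h, with a log2 fold change of 4.13 (SE 0.95, edgeR adjusted p = 0.188). At 4 h it was at 0.165, 0.912 and 4.36 CPM, replicate 1 lying below every normal library, with 1.67 (SE 0.89, edgeR adjusted p = 0.485). Edn1, the gene of the vasoconstrictor endothelin-1, was 3.99-fold higher at 1 h and had a log2 fold change of 2.46 (SE 0.52, edgeR adjusted p = 0.118) at 4 h. Vcam1, a leukocyte adhesion gene, had 3.21 (SE 0.80) and 2.45 (SE 0.77). Thbd, the gene of thrombomodulin, was at 180.5, 124 and 119.6 CPM in normal and at 43.2, 65.0 and 65.4 CPM at 4 h. Its log2 fold change at 4 h was -1.29 (SE 0.33, edgeR adjusted p = 0.172). Whether KLF2 or KLF4 acted on any gene of this list was not tested. The other tested genes of this list overlapped normal at both stages. At 1 h their log2 fold changes were 0.45 (Nos3), 0.58 (Slco2a1), 0.08 (Nov), 0.78 (Cyp1b1), 0.72 (Aqp1), -0.57 (Tek) and 0.55 (Angpt2). At 4 h, in the same order, they were -0.085, 0.19, 0.30, 0.49, 0.15, -0.66 and 0.35. DESeq2 called 3 of the 11 at 1 h, against 4.53% of all genes, and 3 at 4 h, against 3.91%. With only the groups compared in the fit, edgeR called 1 at 1 h, against 0.0268% of all genes.

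Of the glucocorticoid receptor and genes it induces, 10 of 10 were tested, with 6 higher at 1 h and 8 higher at 4 h and 0 lower. The receptor gene itself, Nr3c1, was not among those higher, with log2 fold changes of -0.50 (SE 0.23) at 1 h and -0.20 (SE 0.23) at 4 h. Hsd11b1 had 0.14 (SE 0.41) and 0.18 (SE 0.41). The median log2 fold change was 1.24 at 1 h and 1.82 at 4 h, against -0.0076 and 0.027 over all genes, and this list was chosen with its earlier values known. Sgk1, a salt-handling kinase, was at 51.3, 38.4 and 31.4 CPM in normal, at 126, 145 and 149.6 CPM at 1 h, and at 76.3, 149 and 134 CPM at 4 h. Its log2 fold changes were 1.80 (SE 0.29, edgeR adjusted p = 0.117) and 1.57 (SE 0.29, edgeR adjusted p = 0.0808). Per1, a clock gene that glucocorticoids induce, had 0.72 (SE 0.27) and 1.55 (SE 0.28, edgeR adjusted p = 0.0789), and was at 183, 197 and 151 CPM in normal and at 647, 504 and 408 CPM at 4 h. DESeq2 called 4 of the 10 at 1 h and 6 at 4 h, against 4.53% and 3.91% of all genes. When the nerve score entered the fit, edgeR called 1 and 3, against 0.11% and 0.814% of all genes.

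Of 6 amino acid genes known to be raised by KLF15, 5 were tested, with 1 higher and 2 lower at 1 h and 1 lower at 4 h. Bcat2, which starts the breakdown of branched-chain amino acids, had log2 fold changes of -0.69 (SE 0.20, edgeR adjusted p = 0.227) and -0.67 (SE 0.20, edgeR adjusted p = 0.236). Bckdha, of the next step, had -0.42 (SE 0.18) at 1 h, and Got1, an aspartate aminotransferase, had 1.55 (SE 0.60). Got1 was at 91.4, 108 and 98.8 CPM in the 3 libraries with the highest nerve score and at 20.7 to 35.2 CPM in the other 6. Of 7 contractile genes known to be repressed by KLF4, all tested, 0 passed at either stage, with Lmod1 at -0.67 (SE 0.69) and 0.39 (SE 0.69) and Smtn at -0.53 (SE 0.64) and 0.27 (SE 0.64). Of 10 partners and ubiquitin ligases of KLF proteins, all tested, 1 passed at 1 h and 0 at 4 h. Btrc, a ubiquitin ligase subunit, had 1.46 (SE 0.62) at 1 h and was highest in the 3 libraries with the highest nerve score, at 72.0, 76.7 and 77.1 CPM. Fbxw7, which marks KLF2 and KLF5 for breakdown, had 0.43 (SE 0.22) and 0.42 (SE 0.22). Mef2a, Vcam1, Thbd, Bckdha, Nr3c1 and Hsd11b1 were named after their values were seen.

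**Figure D4:**
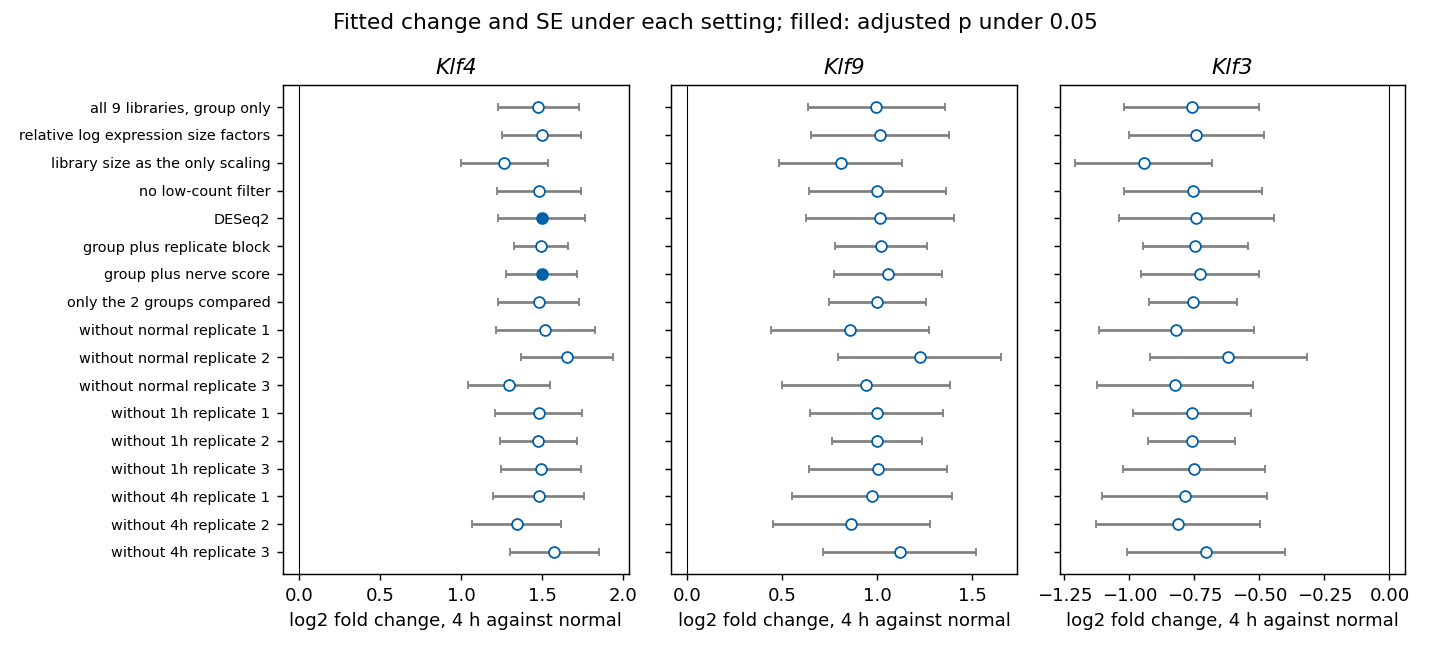
Log2 fold change at 4 h against normal (x axis) of Klf4, Klf9 and Klf3 under each setting tried (y axis), with bars for 1 SE and filled points where the adjusted p was under 0.05. Klf4 is filled with DESeq2 and with the nerve score in the fit, Klf9 and Klf3 in none, and every point of Klf4 and Klf9 lies above 0 and every point of Klf3 below it.

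Last, the genes whose levels most resembled each member over the 9 libraries were listed, up to 3 for each, among 10363 genes of at least 5 CPM. Likeness was Pearson's r of log2 CPM, given as a description, since the best of so many genes must be high and the 9 libraries also differ in nerve markers. For Klf4 they were Gpbp1 (0.979), Mir7a-1 (0.968) and Cyth3 (0.960), and for Klf9 Ktn1 (0.984), Cul1 (0.983) and Sox6 (0.961). For Klf15 they were Nasp (0.982), Rpl24 (0.978) and Rpl14 (0.977), the last 2 genes of ribosomal proteins, and for Klf2 Ccdc90b (0.983) and Ick (0.969). For Klf5 they were Syne3, Stard13 and Zfp462 (0.978 to 0.981), for Klf6 Hmgb1-ps4, Rhoc and Optc (0.946 to 0.965), and for Klf13 Maml3, Gli3 and Cttnbp2nl (0.954 to 0.965). Klf3, with Slc25a37, Snai1 and Tgif1 (0.904 to 0.921), and Klf10, with Uri1, Cers2 and Pvrl2 (0.902 to 0.920), had the least similar nearest genes. No member was among the nearest genes of another, and the highest r between members was 0.850, for Klf4 with Klf9.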

How the data were processed

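RNA of 9 superior mesenteric arteries was sequenced by the authors, who deposited raw counts per gene symbol with no normalization. Per the labels, RNA was taken up in Trizol and libraries followed an Illumina protocol. The submitters' processing notes name HISAT2, with no version. The counting program, genome build, annotation and strand setting are not given in the sources used here. The methods of the study describe arrays for these rats, whereas the deposited values are whole counts and were treated as such.

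Genes were filtered with filterByExpr, scaled with TMM and tested in R 4.3.3 with the quasi-likelihood test of edgeR 4.0.16 on all 9 libraries, with group as the only term. P-values were adjusted by Benjamini-Hochberg over 15482 genes. Calls needed an adjusted p under 0.05 and a fold change over 1.5, the cutoffs of the study. DESeq2 1.42.0 was the other tool. Alternatives were other scalings, no filter, only the groups compared, a replicate block, the nerve score as a covariate and each library left out. Fits were tested on simulated counts. No 2 libraries were copies (lowest chi-square per degree of freedom 23.2). Correlations of deviations between same-numbered libraries ran from -0.651 to 0.660, so numbers were not taken as pairs.

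The members and all lists were chosen with earlier results of these data known. All members were named, with every tested further KLF gene, the 2 genes of smallest p over the 3 groups in each list, and the 3 most alike genes by Pearson's r, of which 1 is not reported here.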

Additional observations from a re-analysis of the deposited data

How the results depend on the processing

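The count of members called by edgeR was 0 in every comparison, and stayed at 0 under both other scalings, without the low-count filter, with only the groups compared, with the replicate block and, over the fits that each left out 1 library, from 0 to 0. It was 1 with DESeq2 at 1 h, at 4 h and over the 3 groups, and 1 at 4 h when the nerve score entered the fit, each time Klf4. That last fit called 126 genes in all, against 14 without the score. The 9 correlations between same-numbered libraries exceeded 0.1 in 4 cases, and with the replicate block 7 genes in all were called at 1 h and 7 at 4 h, against 9 and 14 without it. Scaling for library size alone moved the all-gene median to -0.15 at 4 h against normal and to -0.24 at 4 h against 1 h.

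Signs of changes that were not called turned over as follows, and the cause was not tested. At 1 h against normal, the fit with the nerve score gave 0.24 for Klf2, 0.18 for Klf3, 0.011 for Klf15 and -0.67 for Klf5. Klf5 was -0.050 under library size alone and -0.018 with the replicate block. At 4 h against normal, Klf2 was -0.038 under library size alone. At 4 h against 1 h, the nerve score gave -0.12 for Klf2, 0.017 for Klf5, -0.20 for Klf6 and 0.32 for Klf13, and library size alone gave -0.090 for Klf6. With 1 library left out, values at 1 h ran from -0.41 to 0.11 for Klf3, from -0.38 to 1.33 for Klf5, from -0.11 to 0.43 for Klf6 and from -1.13 to 0.10 for Klf10. Those at 4 h ran from -0.16 to 0.53 for Klf2 and from -1.22 to 0.72 for Klf5, and those between 4 h and 1 h from -0.069 to 0.47 for Klf6 and from -0.41 to 0.27 for Klf13. The signs of Klf4 and Klf9 held in all 3 comparisons, and that of Klf3 in the 2 comparisons with 4 h. Klf5 and Klf13 rest on few counts and also spread widely within groups, as in normal Klf5 with 174, 25 and 23 counts. Few counts and this spread both limit what their intervals can show.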

Other observations

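In each of the 3 groups, replicate 2 held the highest level of 5 members, Klf3, Klf4, Klf6, Klf9 and Klf15. The same was true of 5.01% of the 15482 genes tested, while 2.11% were highest in replicate 1 of every group and 2.85% in replicate 3, with 0 members among either. The labels give no meaning to the replicate number beyond naming a sample. Replicate 2 held the lowest nerve score in normal (0.29) and at 1 h (5.86). At 4 h its score of 1.93 lay between 1.27 in replicate 1 and 8.29 in replicate 3. Whether this bears on the levels of these members was not tested.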
